A study of Mus musculus with 6 samples.

Results

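Genes of fatty acid uptake and oxidation were followed in hearts of Rbpms knockout and wildtype mice. The set was a fixed list of 38 gene symbols, and all 38 had a row among the 20893 genes of the deposited table. The knockout hearts carried a germline loss of Rbpms and were labelled R1KO. The wildtype hearts were labelled Wildtype, and the series text calls the controls littermates. Rbpms encodes an RNA-binding protein of cardiac and smooth muscle. Both groups were C57BL6/J hearts, with 3 libraries each. The series text names the stage both as embryonic and as neonatal, no age is given, and the stage was not resolved. Nothing in the labels says that each library came from its own animal, so the p-values measure the spread between these libraries.

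Long-chain fatty acids reach the cardiomyocyte from lipoproteins and albumin, are activated to acyl-CoA, cross the inner mitochondrial membrane as carnitine esters and are shortened stepwise by beta-oxidation. The electrons released pass to the respiratory chain. The fetal heart relies mostly on glucose and lactate, and the heart after birth turns to fatty acids, a switch in which the nuclear receptor PPAR alpha and the coactivators encoded by Ppargc1a and Ppargc1b take part.

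Values were read numbers that the authors had scaled by a factor for each library and rounded. Undoing the scaling gave 4773244 to 5805783 reads in knockout and 4163230 to 5060232 in wildtype libraries. Rbpms, the targeted gene, held values of 375, 340 and 507 in knockout and 1182, 1176 and 1317 in wildtype libraries, so all labels fit its level. Xist and Y-linked genes put 1 female library in each group, knockout replicate 3 and wildtype replicate 1. Markers of cardiomyocytes were abundant in every library, as the heart label implies, with summed values of 26986 to 30030 over 13 genes in knockout and 28010 to 30366 in wildtype libraries. Markers of liver summed to at most 66 in knockout and 108 in wildtype libraries.

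Across the set, a single gene, Acss3, fell in knockout hearts, and none rose. The test was limma on log2-transformed values with 1 added, and a gene was called at a Benjamini-Hochberg adjusted p under 0.05. All 38 members passed the filter on low values, which asked for 10 or more in 3 or more libraries. Of the 14974 genes that passed it, 0.942% changed, 0.434% lower and 0.508% higher. An unadjusted p under 0.05 was reached by 4 of the 38 members and by 16.4% of all tested genes. The groups did not overlap in 4 members, 3 higher and 1 lower in knockout hearts, against 22.0% of all tested genes. Both counts were made up of Lpl, Acss1, Cpt1b and Acss3, and neither exceeded its background share. The median log2 fold change of the 38 was -0.05, beside 0.00 over all tested genes. These were whole hearts, in which fewer cells of a type and less RNA per cell cannot be told apart.

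Knockout replicate 3 stood apart from the other 5 libraries over this pathway. It was the lowest of the 6 libraries in 23 of 38 members, against 25.0% of all tested genes, and the highest in 6, against 27.1%. Its median over the members was -0.25 on the log2 scale relative to the wildtype mean, while knockout replicates 1 and 2 had 0.04 and 0.06. The 3 wildtype libraries had 0.00, -0.10 and 0.10. Without knockout replicate 3 the median log2 fold change of the 38 was 0.06, and 25 fold changes lay above 0, against 12 with it. Acss3 was again the 1 member called, where 4.86% of all genes were. In the male libraries alone, 2 in each group, Acss3 was the 1 member called as well, beside 1.71% of all genes.

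Depth differed between the libraries. Knockout replicate 3 had the most recovered reads, 5805783, and wildtype replicate 3, which had the fewest, 4163230, was the highest library in 22 of the 38 members and in 16.3% of all tested genes. Knockout replicate 1, the second deepest with 5244596 reads, was the lowest library in 1 member and the highest in 5. Wildtype replicate 2, with 5060232 reads, was the lowest in 8 and the highest in 0. Within each group the median over the members was lower in deeper libraries. In wildtype libraries it was 0.10 at 4163230 reads, 0.00 at 4655117 and -0.10 at 5060232. In knockout libraries it was 0.06 at 4773244 reads, 0.04 at 5244596 and -0.25 at 5805783. Levels were compared between genes as recovered reads per base of exon, averaged over the 6 libraries. For 8 members under 0.1 reads per base, the median of knockout replicate 3 relative to the wildtype mean was 0.02, as it was for the 10842 tested genes in that range. For 19 members between 0.1 and 0.3 it was -0.27, and for the 3425 tested genes in that range it was -0.01. For 11 members above 0.3 it was -0.19, beside -0.10 over 443 tested genes. In wildtype replicates 1, 2 and 3 those 443 genes had medians of 0.00, -0.10 and 0.10, as the 38 members had. The 3425 genes between 0.1 and 0.3 had 0.00, -0.05 and 0.04, and the 10842 genes under 0.1 had 0.00, 0.03 and -0.03. So the order of the wildtype libraries was not particular to the members. The part of depth in the pattern was not tested beyond these values.

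**Figure D1:**
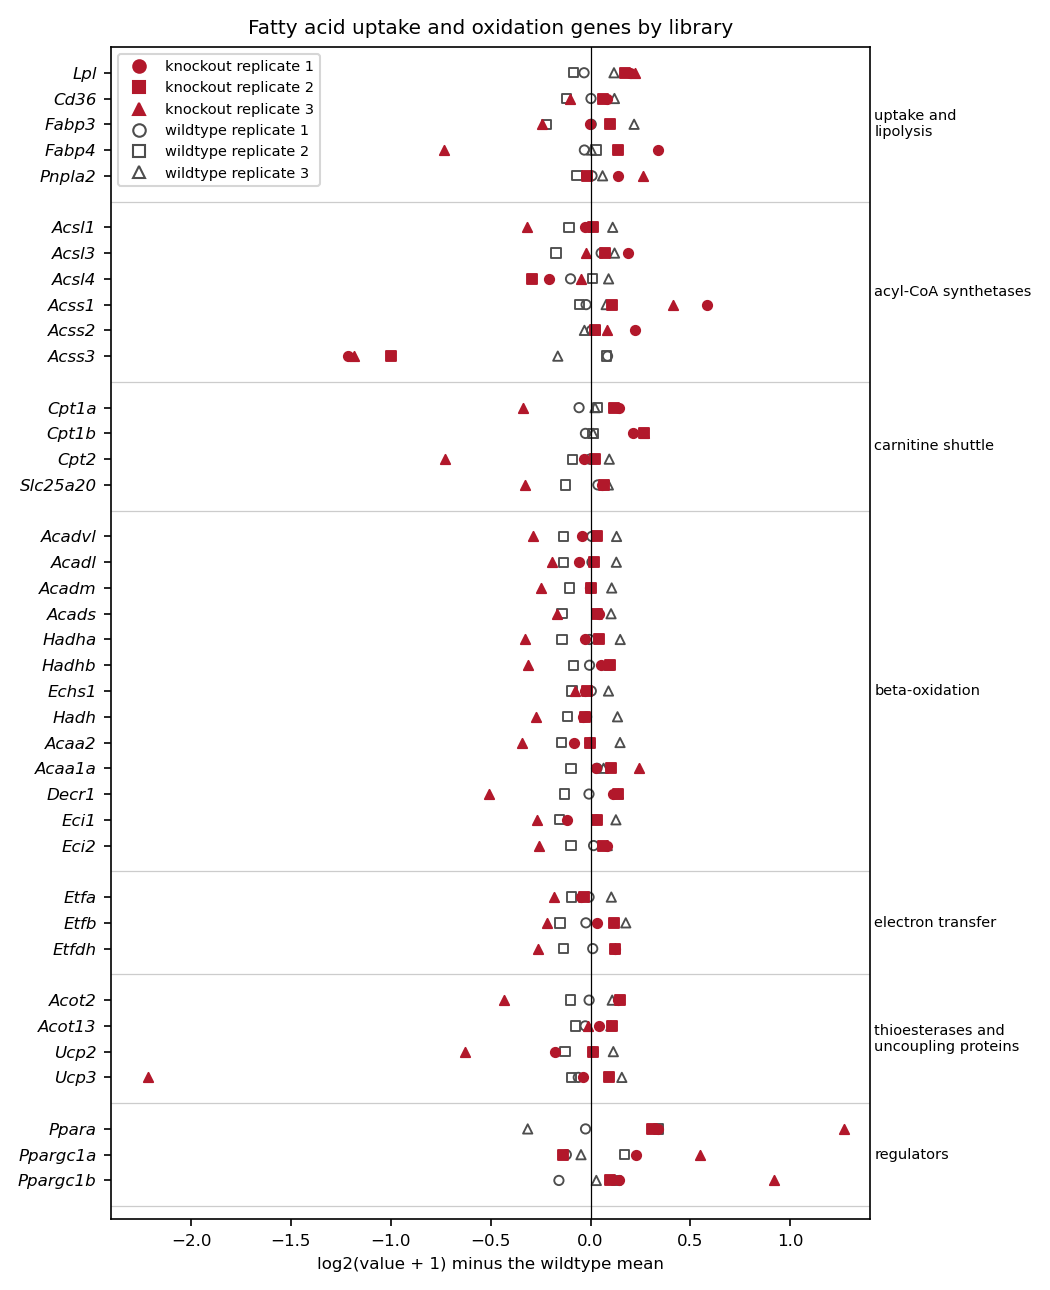
Each row is a member gene, grouped by role, and each point is a library, placed by its log2(value + 1) minus the mean of the 3 wildtype libraries; filled points are knockout and open points wildtype. Acss3 lies near -1 in all 3 knockout libraries, and the knockout replicate 3 triangle lies left of the other points in 23 rows, farthest in Ucp3 at -2.22, and right of them in all 3 regulators.

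The acyl-CoA synthetases attach coenzyme A to fatty acids, Acsl enzymes to long chains and Acss enzymes to acetate and propionate. Acss3, a mitochondrial enzyme with a preference for propionate, held 99, 115 and 101 in knockout and 245, 244 and 206 in wildtype hearts. All 3 knockout libraries lay under all 3 wildtype libraries, with means of 105 ± 8.72 and 232 ± 22.2 (SD, n = 3 each). The log2 fold change came to -1.13 ± 0.12 (SE; limma, adjusted p = 0.0124), a level of 0.456 relative to wildtype. The fall was as large without knockout replicate 3, at -1.11 on the log2 scale (limma, adjusted p = 5.61e-04). The call was lost when certain libraries were left out, at an adjusted p of 0.0523 without knockout replicate 1 and of 0.117, 0.0974 and 0.133 without wildtype replicates 1, 2 and 3, with the log2 fold change between -1.09 and -1.21. Over 18 alternatives its adjusted p ran from 5.61e-04 to 0.133.

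Acss3 occupies chr10:106769378-106959529 of mm39 and is read from the reverse strand. It had the lowest level of the set, 0.0232 reads per base. In the GENCODE M21 annotation, 33.9% of its exon bases lie opposite exons of Ppfia2, a gene of synapse assembly on the other strand. Ppfia2 held 27, 23 and 30 in knockout and 33, 20 and 25 in wildtype hearts, and the groups overlapped. Whether the authors counted reads by strand was not stated in the sources used here, and a shift of reads between the 2 genes was not tested.

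Acss1, the mitochondrial acetyl-CoA synthetase, had the next smallest p of the set and pointed the other way. It held 590, 424 and 524 in knockout and 388, 379 and 416 in wildtype hearts, and the groups did not overlap. The difference was 0.37 ± 0.11 on the log2 scale (SE; limma, adjusted p = 0.159). It passed the threshold without knockout replicate 2 (log2 0.50, limma, adjusted p = 0.0227), a fit in which 3.41% of all genes did. Acss2, the cytosolic and nuclear acetyl-CoA synthetase, held 476, 414 and 431 in knockout and 409, 415 and 399 in wildtype hearts, with overlap (log2 0.11, SE 0.07, limma, adjusted p = 0.508). So of 3 sister enzymes, 1 was lower and passed the test, and the other 2 were higher on average and did not pass.

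**Figure D2:**
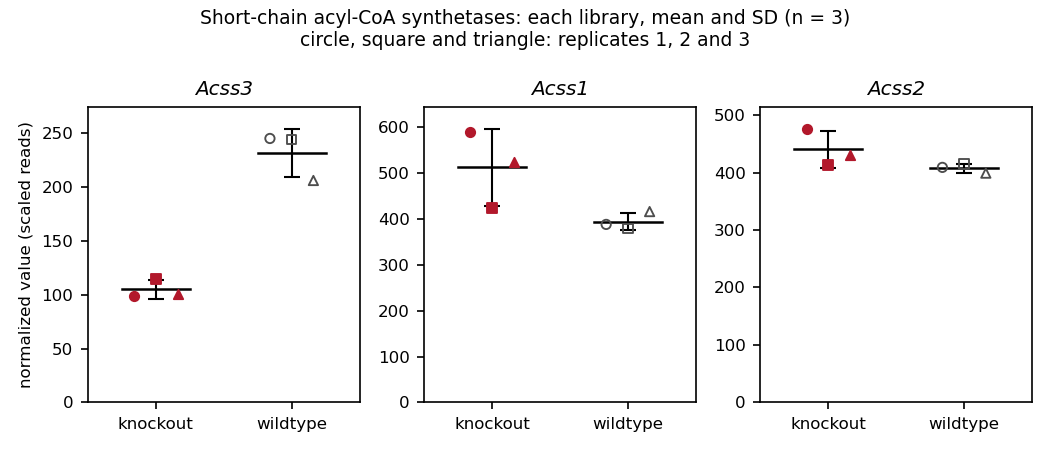
Normalized values of Acss3, Acss1 and Acss2 in each library, knockout on the left and wildtype on the right of each panel, with the mean and SD of 3 libraries. Acss3 sits at 99 to 115 in knockout and 206 to 245 in wildtype hearts, while Acss1 sits at 424 to 590 against 379 to 416.

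Among the long-chain synthetases, Acsl1 is the main form of heart muscle. It held 2238, 2302 and 1834 in knockout and 2278, 2120 and 2466 in wildtype hearts, and only knockout replicate 3 lay outside the wildtype range. Acsl4, which prefers arachidonate, held 315, 296 and 351 in knockout and 339, 366 and 387 in wildtype hearts, and the groups met in 1 library. The log2 difference was -0.18 ± 0.09 (SE; limma, adjusted p = 0.343). Acsl3, linked to lipid droplets, held 717 to 830 in knockout and 647 to 793 in wildtype hearts (limma, adjusted p = 0.715).

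Of the 5 uptake and lipolysis genes, 0 changed, and Lpl, which frees fatty acids from lipoproteins at the capillary wall, was the nearest to the threshold. Lpl held 2340, 2299 and 2380 in knockout and 1993, 1922 and 2211 in wildtype hearts. Every knockout library was above every wildtype library, though the log2 difference was small, 0.20 ± 0.07 (SE; limma, adjusted p = 0.191). Pnpla2, the triglyceride lipase of lipid droplets, held 1083, 974 and 1181 in knockout and 991, 941 and 1028 in wildtype hearts (log2 0.13, SE 0.08, limma, adjusted p = 0.474). Knockout replicate 2 fell inside the wildtype range.

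Cd36, the fatty acid translocase of muscle and endothelium, stood at 1903 ± 130 in knockout and 1887 ± 158 in wildtype hearts (SD, n = 3 each). The log2 difference of 0.01 had a standard error of 0.08. Fabp3, the cytosolic fatty acid carrier of heart muscle, held 310, 332 and 262 in knockout and 311, 266 and 361 in wildtype hearts, with wide overlap. Fabp3 lies opposite other gene models over 19.6% of its exon bases.

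Fabp4, a fatty acid carrier of capillary endothelium and adipocytes, split the knockout group. It held 1300, 1131 and 618 in knockout and 1006, 1047 and 1031 in wildtype hearts. Knockout replicates 1 and 2 lay above all wildtype libraries and knockout replicate 3 below them, so that the log2 difference was -0.09 ± 0.27 (SE; limma, adjusted p = 0.902). Without knockout replicate 3 it was 0.24 ± 0.07 (SE; limma, adjusted p = 0.0795). Markers of endothelium were lowest in knockout replicate 3 in 3 of 16 genes. Among them Kdr, the VEGF receptor, had the order of Fabp4, with 1139, 1250 and 938 in knockout and 1055, 1066 and 1118 in wildtype hearts, and the apelin receptor gene Aplnr held 618, 796 and 417 in knockout and 874, 825 and 992 in wildtype hearts. The median over the 16 genes was 0.16, 0.12 and 0.14 on the log2 scale in knockout replicates 1, 2 and 3 relative to the wildtype mean, and their summed values were 13959 to 14575 in knockout and 13068 to 13444 in wildtype libraries. Of the adipocyte markers, Adrb3 and Elovl3 held at most 3 in any library, and the 5 genes with values, nearly all from Cidea and Aqp7, summed to 690, 619 and 445 in knockout and 527, 514 and 450 in wildtype libraries. These sums had the order of Fabp4 as well, at the low end by 445 against 450. Cidea held 247 in knockout replicate 3 and 239 in wildtype replicate 2, and Aqp7 held 191 in knockout replicate 3 and wildtype replicate 3. Of the 12 adipocyte markers, 5 had values and 2 passed the filter. The part of either cell type in the values of Fabp4 was not tested.

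The carnitine shuttle carries acyl groups into the mitochondrion. Cpt1a and Cpt1b encode the outer-membrane transferase of liver and of muscle, Slc25a20 the carrier of the inner membrane and Cpt2 the transferase on its inner side. None of the 4 changed, and 3 of them were lowest in knockout replicate 3. Cpt2 held 852, 886 and 526 in knockout and 869, 819 and 930 in wildtype hearts, so that knockout replicate 3 had 0.603 of the wildtype mean while the other 2 knockout libraries lay inside the wildtype range. The log2 difference was -0.25 ± 0.20 (SE; limma, adjusted p = 0.587), and 0.00 without knockout replicate 3. Cpt1a held 1311, 1291 and 939 in knockout and 1142, 1218 and 1207 in wildtype hearts. Here too knockout replicates 1 and 2 were above and knockout replicate 3 below every wildtype library. Slc25a20 held 848, 853 and 649 in knockout and 836, 747 and 867 in wildtype hearts.

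Cpt1b went against this order. It held 130, 135 and 135 in knockout and 110, 113 and 113 in wildtype hearts, tight groups that did not overlap. By limma this was 0.25 ± 0.11 on the log2 scale (SE, adjusted p = 0.304). Per base of exon, Cpt1b stood at 0.0369 reads and Cpt1a at 0.156. In GENCODE M21, 81.4% of the exon bases of Cpt1b also belong to the gene model Gm44502 on the same strand, so that its value may hold only part of its reads and its level is uncertain.

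**Figure D3:**
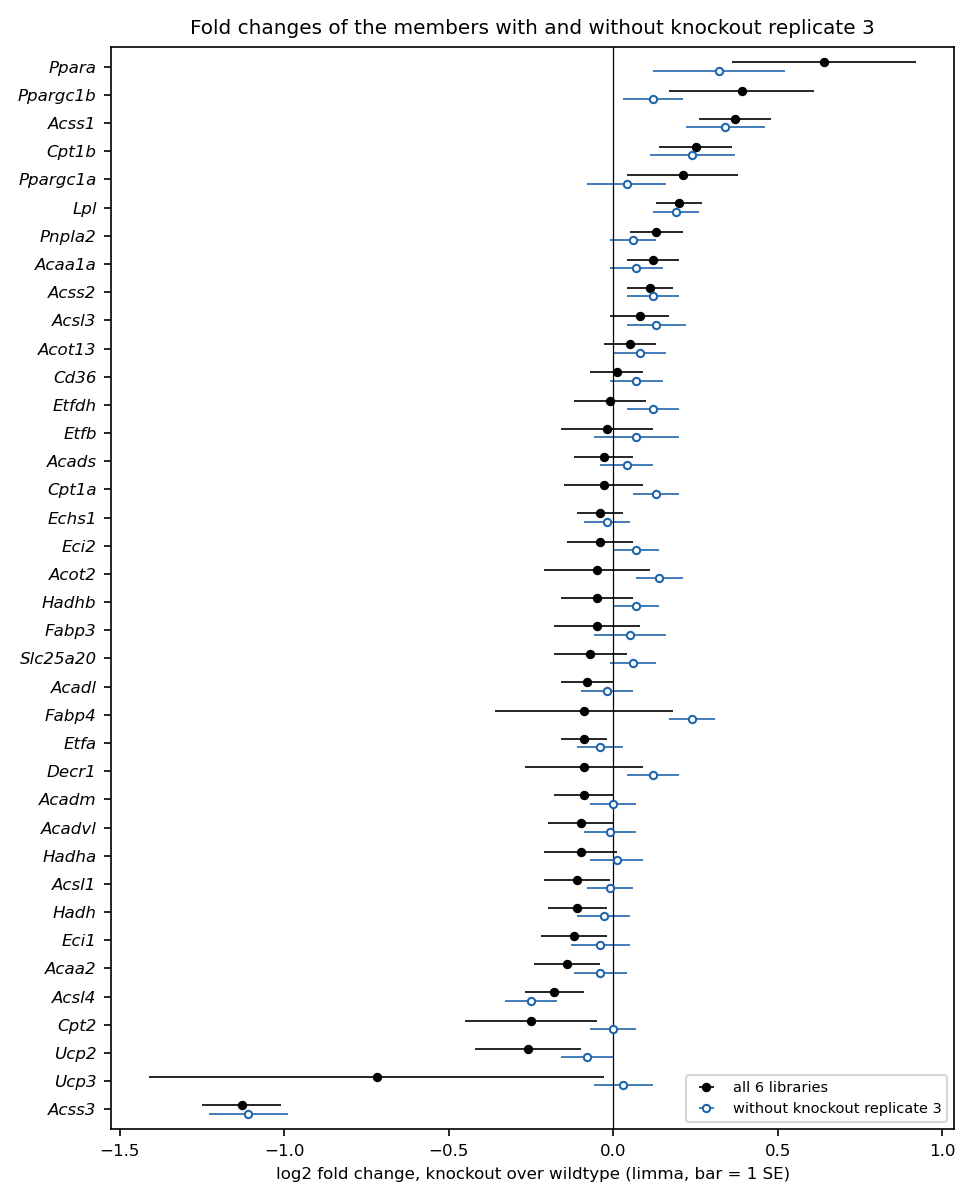
Log2 fold changes of the 38 members, knockout over wildtype, with 1 standard error, from all 6 libraries (filled) and without knockout replicate 3 (open). Acss3 is at -1.13 and -1.11, whereas Ucp3 is at -0.72 with a standard error of 0.69 and at 0.03 without that library.

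The 13 enzymes of beta-oxidation held 0 changed genes, with log2 fold changes from -0.14 to 0.12 and standard errors from 0.07 to 0.18 (limma, adjusted p from 0.483 to 0.891). Knockout replicate 3 was the lowest library in 11 of the 13. The acyl-CoA dehydrogenases open each round of the spiral for very long, long, medium and short chains. Acadvl, the first of them, held 1624, 1709 and 1368 in knockout and 1680, 1522 and 1831 in wildtype hearts. Acadm, the enzyme for medium chains, held 1176, 1180 and 992 in knockout and 1180, 1097 and 1270 in wildtype hearts. Both show knockout replicate 3 as the only knockout library under the wildtype range. Acadl, for long chains, averaged 1392 ± 102 in knockout and 1469 ± 135 in wildtype hearts (SD, n = 3 each). Acads, for short chains, averaged 763 ± 62.4 in knockout and 780 ± 67.8 in wildtype hearts. Acadvl lies opposite Dvl2 over 42.9% of its exon bases, and Dvl2 held 606 to 693 in knockout and 620 to 779 in wildtype hearts.

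Hadha and Hadhb encode the subunits of the mitochondrial trifunctional protein, which carries out the later steps for long chains. Hadha held 2261, 2368 and 1833 in knockout and 2294, 2085 and 2552 in wildtype hearts. Hadhb held 574, 591 and 445 in knockout and 551, 521 and 589 in wildtype hearts. In both subunits knockout replicate 3 was the lowest library, at 0.793 and 0.804 of the wildtype mean. Echs1, Hadh and Acaa2, the hydratase, dehydrogenase and thiolase for shorter chains, had log2 fold changes of -0.04, -0.11 and -0.14 (limma, adjusted p = 0.802, 0.570 and 0.534). Acaa2 had the highest level of the set, 0.745 reads per base, and the highest of any gene in the table was 0.925. Of the members, 5 stood above 0.5. Whether duplicate reads were removed was not stated in the sources used here. Whether the values of abundant genes were held down was not tested, so these levels and small differences are uncertain to that extent.

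Unsaturated fatty acids need further enzymes, the reductase Decr1 and the isomerases Eci1 and Eci2. Decr1 held 1109, 1128 and 721 in knockout and 1021, 937 and 1131 in wildtype hearts. Knockout replicate 3 was at 0.70 of the wildtype mean, the lowest share among the beta-oxidation enzymes, and the other 2 knockout libraries lay in the upper part of the wildtype range. Eci1 held 526 to 650 in knockout and 569 to 693 in wildtype hearts. Eci2 held 665 to 840 in knockout and 742 to 842 in wildtype hearts, and both were lowest in knockout replicate 3. Acaa1a, the thiolase of peroxisomes, differed from the mitochondrial enzymes in order. It held 429, 452 and 497 in knockout and 430, 393 and 440 in wildtype hearts, with knockout replicate 3 the highest library (log2 0.12, SE 0.08, limma, adjusted p = 0.483). Acaa1b is a close copy, so that reads shared between them leave its value uncertain.

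The electron transfer flavoprotein, encoded by Etfa and Etfb, hands electrons from the dehydrogenases to the oxidoreductase encoded by Etfdh. None of the 3 changed, with log2 fold changes of -0.09, -0.02 and -0.01 (limma, adjusted p = 0.601, 0.955 and 0.982), and knockout replicate 3 was the lowest library in all 3. Etfdh held 1512, 1511 and 1158 in knockout and 1400, 1265 and 1515 in wildtype hearts, with knockout replicates 1 and 2 near the top of the wildtype range. Etfb, at 132, 140 and 111 in knockout and 127, 116 and 146 in wildtype hearts, shares 58.2% of its exon bases with other gene models on its strand, and its level is uncertain.

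Ucp3, a mitochondrial carrier of muscle linked to fatty acid handling, had the widest spread of the set. It held 528, 579 and 116 in knockout and 520, 508 and 605 in wildtype hearts. Knockout replicates 1 and 2 lay within the wildtype range, and knockout replicate 3 had 0.213 of the wildtype mean. The log2 difference was -0.72 ± 0.69 (SE; limma, adjusted p = 0.668), and 0.03 ± 0.09 without that library. Ucp2, its widely expressed relative, held 1036, 1183 and 757 in knockout and 1183, 1072 and 1268 in wildtype hearts. On the log2 scale it differed by -0.26 ± 0.16 (SE; limma, adjusted p = 0.456), and by -0.08 without knockout replicate 3.

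The thioesterases release free fatty acids from acyl-CoA. Acot2, the mitochondrial form, held 754, 760 and 507 in knockout and 682, 639 and 739 in wildtype hearts. Knockout replicate 3 lay below and the other knockout libraries above every wildtype library, the order also seen in Fabp4 and Cpt1a. Acot1 is nearly identical to Acot2 in sequence, so that reads shared between them leave the value uncertain. Acot13 held 382, 400 and 368 in knockout and 364, 352 and 398 in wildtype hearts, with no library apart.

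**Figure D4:**
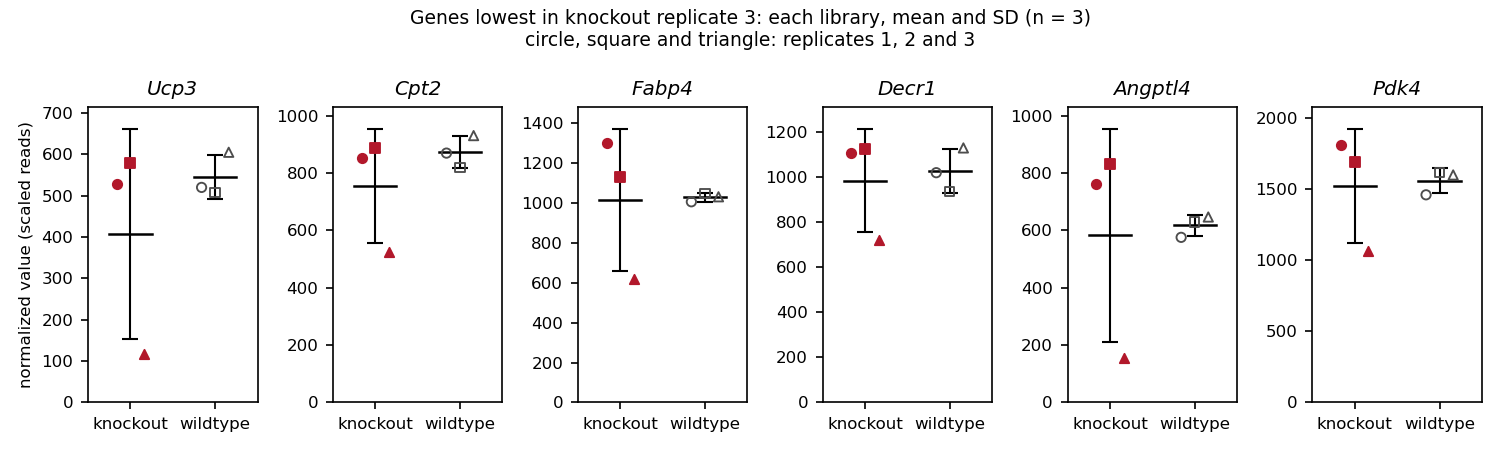
Normalized values of 4 members, Ucp3, Cpt2, Fabp4 and Decr1, and of Angptl4 and Pdk4 from the list of PPAR targets, in each library, knockout on the left and wildtype on the right, with the mean and SD of 3 libraries. In each panel knockout replicate 3, the triangle, is the lowest point, at 116 for Ucp3 and 156 for Angptl4.

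Upstream sequence is shown for 3 members picked after their values were seen, Ucp3, Cpt2 and Cpt1a, all lowest in knockout replicate 3. Cpt1a was at -0.34 there on the log2 scale relative to the wildtype mean. Ucp2, Decr1 and Acot2 were lower, at -0.63, -0.51 and -0.43, and are not shown. PPAR alpha, with its partner RXR, binds paired copies of AGGTCA. The sequences are the 250 bases before the gene start, from RefSeq on GRCm38.p6, 5′ to 3′ on the strand of the gene, with each AGGTCA on either strand in capitals. They lie at chr7:100472741-100472990 (forward strand), chr4:107923590-107923839 (reverse strand) and chr19:3323051-3323300 (forward strand).
Ucp3: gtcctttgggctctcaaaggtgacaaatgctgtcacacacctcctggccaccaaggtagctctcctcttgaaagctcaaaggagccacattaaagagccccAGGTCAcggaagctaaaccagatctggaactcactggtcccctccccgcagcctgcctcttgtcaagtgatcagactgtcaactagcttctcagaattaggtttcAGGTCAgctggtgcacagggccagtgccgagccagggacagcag
Cpt2: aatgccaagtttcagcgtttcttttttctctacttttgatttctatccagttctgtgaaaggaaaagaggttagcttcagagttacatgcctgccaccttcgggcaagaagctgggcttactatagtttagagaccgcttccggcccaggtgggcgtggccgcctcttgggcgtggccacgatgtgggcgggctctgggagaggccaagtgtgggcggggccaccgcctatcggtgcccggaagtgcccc
Cpt1a: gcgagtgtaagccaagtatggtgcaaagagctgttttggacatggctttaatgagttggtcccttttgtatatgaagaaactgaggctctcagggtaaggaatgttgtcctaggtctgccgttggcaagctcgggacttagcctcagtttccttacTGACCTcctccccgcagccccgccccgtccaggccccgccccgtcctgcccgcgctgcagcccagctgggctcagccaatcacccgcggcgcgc

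In that window Ucp3 held AGGTCA 2 times on its own strand, 149 and 44 bases before the start. These 2 copies are not side by side. Cpt1a held it 1 time on the opposite strand, read as TGACCT, 94 bases before the start, and Cpt2 held it 0 times. An upstream window was found for 30 of the 38 members, and 6 of the 30 held the motif (Acadm, Acadvl, Cd36, Cpt1a, Echs1 and Ucp3), beside 14.0% of all 32851 windows of that length. A match of these letters is not a binding site, and its absence from this window shows nothing about the receptor.

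The 3 regulators were high in knockout replicate 3, where most of the enzymes were low. Ppara, which encodes the fatty acid receptor PPAR alpha, held 84, 82 and 161 in knockout and 65, 84 and 53 in wildtype hearts. Knockout replicate 3 was at 2.39 of the wildtype mean, and the other knockout libraries met the top of the wildtype range. The log2 difference was 0.64 ± 0.28 (SE; limma, adjusted p = 0.308). Ppargc1b held 328, 318 and 563 in knockout and 266, 325 and 303 in wildtype hearts (log2 0.39, SE 0.22, limma, adjusted p = 0.434). Ppargc1a held 1072, 833 and 1338 in knockout and 842, 1030 and 886 in wildtype hearts (log2 0.21, SE 0.17, limma, adjusted p = 0.579). All 3 were highest in knockout replicate 3, as were 11 of 26 other regulators of fatty acid oxidation (42.3%) and 27.1% of all tested genes. Without that library the log2 fold changes of the 3 were 0.32, 0.12 and 0.04 (limma, adjusted p = 0.410, 0.550 and 0.887).

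**Figure D5:**
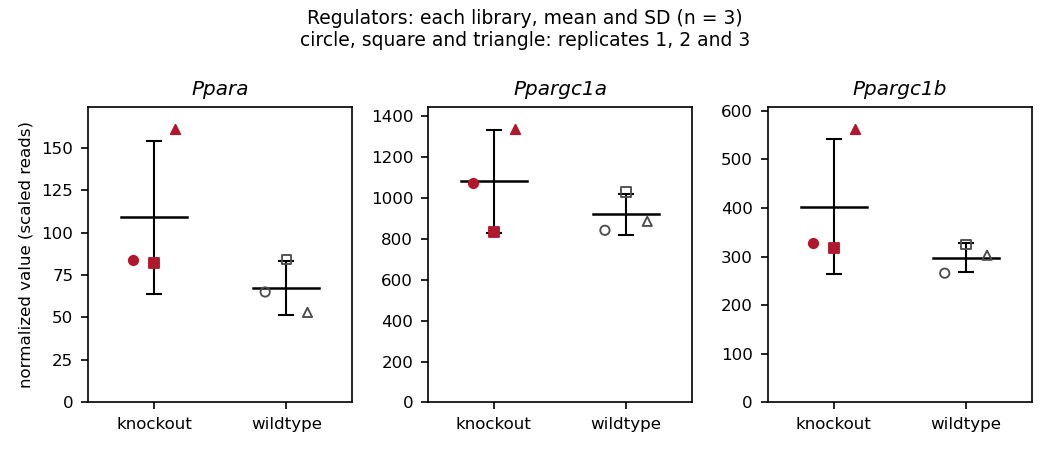
Normalized values of Ppara, Ppargc1a and Ppargc1b in each library, knockout on the left and wildtype on the right, with the mean and SD of 3 libraries. Knockout replicate 3, the triangle, is the highest point in each panel, at 161, 1338 and 563.

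Known targets of PPAR receptors outside the set were also mostly low in that library. Of 19 tested, 0 changed, and 13 (68.4%) were lowest in knockout replicate 3, against 25.0% of all tested genes. Their median there was -0.31 on the log2 scale relative to the wildtype mean, against 0.14 and 0.05 in knockout replicates 1 and 2. The share lowest there was 66.7% in the epicardium list, 61.5% in cardiomyocyte markers and 18.8% in the endothelial list. So the low rank was not particular to PPAR targets. Angptl4, a secreted inhibitor of lipoprotein lipase, held 761, 832 and 156 in knockout and 576, 630 and 647 in wildtype hearts. Pdk4, which holds back glucose oxidation, held 1816, 1690 and 1063 in knockout and 1462, 1621 and 1602 in wildtype hearts. Without knockout replicate 3, 2 targets rose, Angptl4 (log2 0.37, limma, adjusted p = 0.0139) and Plin5, a lipid droplet protein of oxidative tissue (log2 0.64, limma, adjusted p = 0.00498), in a fit that called 2.26% of all genes higher. These 3 genes were named after their values were seen. Over all libraries Slc22a5, the carnitine transporter, had the smallest p of the list, at 195 ± 29.7 in knockout and 252 ± 7.37 in wildtype hearts (SD, n = 3 each; log2 -0.38, limma, adjusted p = 0.167).

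Neighbouring pathways were read against the same background, 0.942% of all tested genes changed and 16.4% with an unadjusted p under 0.05. In the lists of 32 further genes of lipid uptake and storage, 17 of peroxisomal oxidation, 23 of branched-chain and ketone body oxidation, 26 other regulators of fatty acid oxidation and 43 of the citrate cycle and respiratory chain, 0 changed, with medians between -0.09 and 0.04. An unadjusted p under 0.05 was reached by 2, 2, 6, 2 and 0 of them. The smallest p belonged to Slc22a5 again, to the peroxisomal carrier protein Scp2 (log2 -0.35, limma, adjusted p = 0.0976), to Mmut, the mutase at the end of propionate breakdown (log2 0.23, adjusted p = 0.147), to the muscle coactivator Perm1 (log2 0.26, adjusted p = 0.158) and to the ATP synthase subunit Atp5b (log2 -0.12, adjusted p = 0.466). Of 29 genes of fatty acid and sterol synthesis, 1 rose, the lanosterol synthase Lss, at 279 ± 23.4 in knockout and 174 ± 25.3 in wildtype hearts (SD, n = 3 each; log2 0.68, limma, adjusted p = 0.0464). Of 34 genes of glucose uptake and glycolysis, 1 fell, the aldolase Aldoc, at 106 ± 11.2 in knockout and 207 ± 28.9 in wildtype hearts (SD, n = 3 each; log2 -0.95, limma, adjusted p = 0.0233). The call of Lss was lost by voom on recovered reads (adjusted p = 0.0543 with limma), where that of Aldoc was kept (0.0316). With the replicate number as a block both calls were lost (limma, adjusted p = 0.12 for Lss and 0.0974 for Aldoc). That fit called 23 genes of the table. Neither call held when wildtype replicate 2 or 3 was left out, since limma then called 0 genes of the table, Rbpms included.

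Knockout replicate 3 was the lowest library in 17 of 32 lipid uptake and storage genes, 9 of 17 peroxisomal genes and 20 of 43 genes of the citrate cycle and respiratory chain. It was the lowest in 5 of 23 branched-chain genes and 3 of 26 regulators, where 25.0% is the share over all tested genes. Cell type markers also set that library apart. The epicardium list had a median of -1.30 there, against 0.10 and 0.15 in knockout replicates 1 and 2, and 8 of its 12 genes were lowest there, such as Upk3b at 79 in it and 245 to 313 in the other libraries. Others of the list were not low, with Krt18 at 316 in that library and 116 to 233 in the other libraries, and Wt1 and Krt8 above every wildtype library. The erythroid list summed to 2762, against 1171 to 1335 in the other libraries. Cardiomyocyte markers had a median of -0.13 in that library, the lowest in 8 of 13 (61.5%), and mature cardiomyocyte genes one of -0.16, the lowest in 10 of 16 (62.5%). The members' share was 60.5%, so the low rank of that library was not particular to the pathway. The part of cell makeup, stage or sex in the lower pathway values of that library was not tested.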

How the data were processed

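Per the labels' protocols, stranded mRNA libraries of heart RNA were sequenced with single-end reads. Per the submitters' processing notes, which give no order, the authors used DESeq2 1.36.0, featureCounts 2.0.4, STAR 2.7.11a, Trimmomatic 0.39 and Picard 3.0.0 on mm39. Their deposited values were handled as a score: reads per gene scaled by a factor for each library and rounded, as the spacing of low values shows. The factors were estimated from values under 400 and divided out to recover reads. Factors above 1 were refined so that whole reads gave 100% of the values. For factors under 1 that share is 100% by construction and refined nothing. These were knockout replicates 1 and 3 and wildtype replicate 2, at 0.9371, 0.8524 and 0.9568.

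Testing covered the 14974 genes that reached 10 in 3 or more libraries. It used limma 3.58.1 under R 4.3.3 with statmod 1.5.0, after adding 1 and taking log2, with robust moderation, a trend on mean level and no covariate. This scale understates changes of low genes. The use made of Picard is not stated, and whether changes of abundant genes are understated too was not tested. P-values were adjusted by Benjamini-Hochberg over all tested genes. The script was tested on simulated data. Exon lengths and overlaps came from GENCODE M21 (GRCm38), matched by gene identifier for 98.2% of tested genes. The members, lists and tests were chosen with earlier results of these data known. Full values were given for called members and the 10 members with the smallest p, and for others that stood apart, named after their values were seen. From each other list the called genes, or the one with the smallest p, were named, in marker lists only where they touched a result. Alternatives are described at the end.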

Additional observations from a re-analysis of the deposited data

How the results depend on the processing

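Acss3 kept its direction under all 18 alternatives, while the median over the members turned sign, at 0.06 in male libraries only, an alternative chosen after seeing the data, and also 0.06 without knockout replicate 3, against -0.05 with all libraries. Over all genes 141 changed with all libraries, 218 with no filter on low values, 78 with a mean of at least 50, 90 without robust moderation, 82 by voom on recovered reads, 256 in male libraries only and 223 with sex as a covariate. With the replicate number as a block 23 changed and 1 member, Acss3 (limma, adjusted p = 0.0364). Same-numbered libraries correlated at -0.169, -0.111 and -0.13 in their deviations from the group means, and differently numbered ones at -0.016 to 0.136. These values show no pairing by number, but with 3 libraries in each group they cannot exclude it. Leaving out each library in turn gave 0 to 727 changed genes, 0 to 2 changed members and medians of -0.12 to 0.06. The genes numbered 6, 510 and 727 without knockout replicates 1, 2 and 3, and 3, 0 and 0 without wildtype replicates 1, 2 and 3. An unadjusted limma p under 0.05 was reached by 2176 genes without wildtype replicate 2 and by 1852 without wildtype replicate 3.

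None of the members whose direction turned was called in either fit, and the cause was not tested. Cd36 had a log2 fold change of -0.01 with equal totals. In male libraries only, those of Fabp3, Fabp4, Cpt1a, Slc25a20, Acads and Hadha were 0.05, 0.22, 0.10, 0.08, 0.06 and 0.00. Those of Hadhb, Decr1, Eci2, Etfb, Etfdh, Acot2 and Ppargc1a were 0.07, 0.12, 0.08, 0.06, 0.13, 0.14 and -0.02. With each library left out, the ranges were -0.05 to 0.07 for Cd36, -0.16 to 0.06 for Fabp3, -0.30 to 0.24 for Fabp4, -0.01 to 0.14 for Acsl3, -0.11 to 0.13 for Cpt1a and -0.14 to 0.06 for Slc25a20. They were -0.10 to 0.04 for Acads, -0.18 to 0.01 for Hadha, -0.13 to 0.07 for Hadhb, -0.09 to 0.00 for Echs1, -0.20 to 0.12 for Decr1 and -0.10 to 0.07 for Eci2. They were -0.10 to 0.07 for Etfb, -0.07 to 0.12 for Etfdh, -0.15 to 0.14 for Acot2 and -1.13 to 0.03 for Ucp3.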
